A study of Triticum aestivum with 36 samples.

Results

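The grain of the bread wheat variety Sonalika was compared between 7 and 14 days after anthesis (DAA), the interval in which the young endosperm turns from making cells to filling them. The comparison takes the 3 arrays titled Sonalika at 14 DAA minus the 3 titled Sonalika at 7 DAA, 6 of the 36 arrays of the series, over the 61179 probe sets of the Affymetrix Wheat Genome Array that are no controls, out of 61290. The series holds 4 Indian varieties, C306 and Lok1 of good and Sonalika and WH291 of poor quality for chapatti, an unleavened flat bread, each at 7, 14 and 28 DAA with 3 biological replicates. All plants were untreated field-grown plants of the same season, and each RNA was pooled from several caryopses of the central part of spikes tagged at anthesis. A caryopsis holds endosperm, embryo, aleurone and the maternal pericarp together, so fewer cells of a type and less RNA per cell cannot be told apart.

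In the wheat grain the endosperm first multiplies its nuclei and lays down walls, and it then fills with starch and with storage proteins. The prolamins, which are the gliadins and glutenins, form gluten when flour is wetted. The embryo grows beside the endosperm and begins to make the oil bodies and the protective proteins that let it survive drying, while the green pericarp around both loses its photosynthesis as the grain matures.

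Values are log2 signals, and every probe set was centred on its own median over the 36 arrays, so that 0 is the middle of the series for that probe set and says nothing of its level beside another. Differences are 14 DAA minus 7 DAA in log2 with their standard error (SE). The tests are limma's, fitted to all 36 arrays, with p adjusted by the Benjamini-Hochberg method over the 61179 probe sets and a threshold of 0.05. The SE pools the spread of all 12 groups of variety and stage, so it can exceed the spread of the 6 Sonalika arrays by far. It can also fall below that spread, as at some prolamin probe sets where 7 DAA replicate 3 stood apart.

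Between 7 and 14 DAA 7526 probe sets rose (12.3% of those tested) and 8986 fell (14.7%), 27.0% in all. By at least 2-fold 4295 rose (7.02%) and 3842 fell (6.28%), and by at least 16-fold 541 rose and 219 fell. Falls outnumbered rises, but the rises were the larger, with a median of 1.12 among the called rises against -0.89 among the called falls. The median over all probe sets was -0.04. With or without a pass, the arrays of the stages did not overlap at 11983 probe sets that were higher (19.6%) and 14777 that were lower (24.2%) at 14 DAA. The first principal component of the 6 arrays, which separated the stages, held 86.5% of their variance.

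One array at 7 DAA stood apart from its replicates. Replicates 1 and 2 correlated at r = 0.955 over the probe sets, and replicate 3 with them at 0.881 and 0.869. The second principal component, with 5.62% of the variance, set replicate 3 at -68.0 against 25.7 and 32.6 for the others. Replicate 3 exceeded the mean of the other 2 by more than 2 in log2 at 176 probe sets (0.288% of all) and fell below it by as much at 39 (0.0637%). Its nearest array outside its own group was C306 7 DAA replicate 3, at r = 0.782, whereas replicates 1 and 2 lay nearest to WH291 7 DAA replicate 1, at 0.835 and 0.823. Whether the stage or sample of this array and of C306 7 DAA replicate 3 is the one in their labels was not tested, and the 7 DAA means of both varieties and the comparison between them rest on these labels. Results are therefore given with and without Sonalika 7 DAA replicate 3. Without this array 7017 probe sets rose (11.5%) and 8335 fell (13.6%), of which 6544 and 7711 were also called with it. By correlation over the probe sets 1 array at 14 DAA stood apart too. Replicate 1 at 14 DAA correlated with replicates 2 and 3 of that stage at 0.724 and 0.712, and these with each other at 0.852.

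The controls of the arrays moved between the stages as well. The 36 probe sets for the poly-A controls (dap, lys, phe and thr transcripts of a bacterium, added to the RNA before labelling) had medians of -3.29, -3.32 and -3.33 in the 7 DAA arrays of Sonalika. At 14 DAA the medians were 2.56, 2.16 and 2.16, so that all 36 were higher with no overlap of the arrays, by a median of 5.79. In C306 the same 36 went the other way, with a median difference of -1.99. The hybridization controls bioC, bioD and cre differed by a median of 0.72 in Sonalika, and 12 control probe sets for wheat actin, elongation factor 1-alpha and glyceraldehyde-3-phosphate dehydrogenase by a median of 0.00 (range -0.46 to 0.48). ADP-ribosylation factor, the reference gene of the study's PCR, differed by -0.01 (SE 0.15, adjusted p = 0.98 by limma). Within Sonalika the poly-A shift moves with the stage, and its part in the differences below was not tested.

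**Figure D1:**
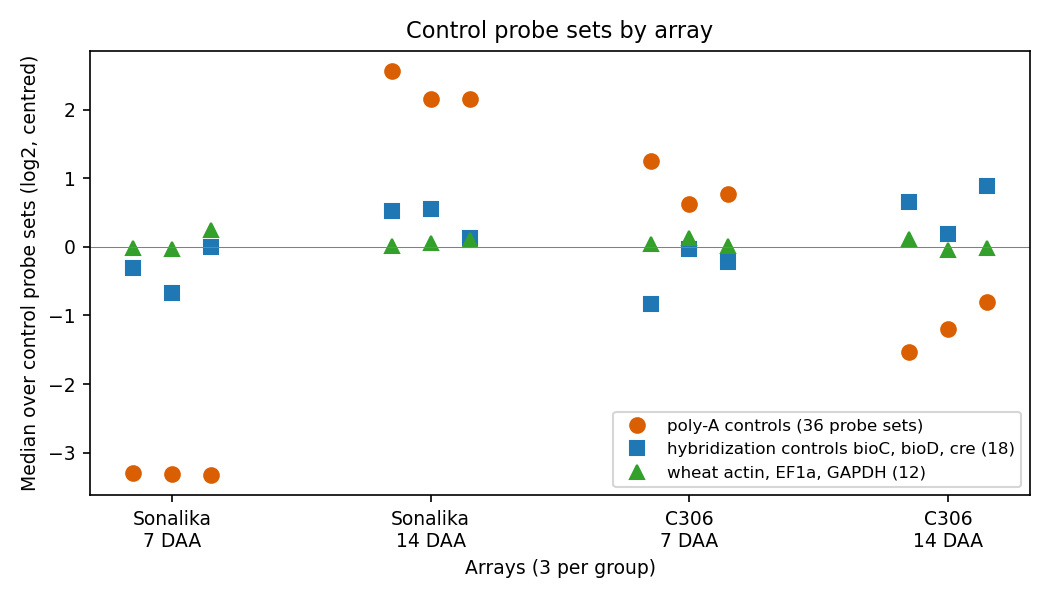
Median log2 value of the control probe sets in each of the 12 arrays of Sonalika and C306 at 7 and 14 DAA, with circles for the 36 poly-A controls, squares for the 18 hybridization controls and triangles for the 12 wheat control probe sets. The poly-A medians of Sonalika lie near -3.3 at 7 DAA and above 2 at 14 DAA, and those of C306 lie above 0 at 7 DAA and below 0 at 14 DAA.

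Storage protein genes of the endosperm made up the largest block of rising genes among those with a name. Of 61 prolamin probe sets 55 rose and 0 fell, against 12.3% rising among all probe sets, with a median difference of 6.94. Without 7 DAA replicate 3 the count was 60 and the median 8.92. The lists were made from gene names, and 56 of the storage protein probe sets were picked by the study on these same arrays, so their counts are not independent evidence. Of those 56, 51 rose. Many of the storage protein probe sets read several copies of a family at once, so single members are uncertain. Among the 333 probe sets with a name, from which all lists were drawn, 137 rose and 66 fell. After cyclic loess between the arrays, run on the centred values, 24 of the 61 rose and 0 fell, with a median of 2.10. Centred values hold no level of signal, so here and below this loess did not act along signal level. It can also take up real changes shared by many probe sets, and cannot decide whether a difference depends on the normalization.

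The medians over the 61 probe sets show how the arrays lay. At 7 DAA they were -7.55, -6.97 and -1.98 in replicates 1, 2 and 3, and at 14 DAA 0.67, 1.00 and 1.08. Replicate 3 therefore lay between its own group and the 14 DAA arrays, nearer to the latter, and it was the highest 7 DAA array at all 61 probe sets. Its excess over the mean of the others was above 2 at 55 of the 61 (90.2%), against 0.288% of all probe sets. Among the 333 probe sets with a name, these 61 included, the share was 30.9%. No such gap existed among the 14 DAA arrays, where the median SD of the 61 was 0.146 against 2.98 at 7 DAA.

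High-molecular-weight (HMW) glutenins, the subunits that give dough its elasticity, rose at 6 of 6 probe sets, with a median of 7.37. One of them (TaAffx.120246.1.S1_x_at) was at -8.45, -7.51 and -4.20 at 7 DAA and at 2.23, 2.39 and 2.62 at 14 DAA. The 2 sets of arrays did not overlap, and the rise of 9.14 (SE 1.28, adjusted p = 2.89e-06 by limma) is 563-fold. The truncated subunit 1By9 (Ta.1257.2.A1_x_at) rose by 8.14 (SE 1.06) and the subunit Ax2* (Ta.27386.1.S1_x_at) by 7.36 (SE 1.18).

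Low-molecular-weight (LMW) glutenins, which are linked into the same polymers, rose at 11 of 13 probe sets (12 without replicate 3). Their median was 4.90. Some of the 13, such as Ta.160.1.S1_x_at, carry gamma-gliadin names and are counted among the gamma-gliadins too. The largest rise (Ta.14625.2.S1_x_at) went from -9.64, -9.33 and -2.20 to 1.12, 1.47 and 1.55. Here replicate 3 was closer to the 14 DAA arrays than to its own group. The difference was 8.44 (SE 1.41, adjusted p = 3.4e-05 by limma) with it and 10.87 without it. A probe set for Glu-D3 (Ta.160.2.A1_at) did not pass, at -0.50 (adjusted p = 0.499).

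Alpha-gliadins, monomeric proteins that make dough viscous, rose at 9 of 9 probe sets, with a median of 8.42. The alpha-gliadin probed in the study's PCR was at -10.39, -10.19 and -2.79 at 7 DAA and at 0.84, 0.95 and 1.10 at 14 DAA. Its rise was 8.75 (SE 1.40, adjusted p = 1.84e-05 by limma), 11.25 without replicate 3 and 2.45 (adjusted p = 0.196) after cyclic loess. In a fit of the 6 Sonalika arrays alone 9 of 9 also rose, and this gene had the larger SE of 1.66 (adjusted p = 0.00308 by limma). At 28 DAA the gene was at 0.97, -0.03 and 0.91, in the range of 14 DAA or below.

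Gamma-gliadins rose at 20 of 20 probe sets, with a median of 7.50. The leading one (TaAffx.128418.2.S1_x_at) rose from -8.40, -8.38 and -2.94 to 2.98, 3.18 and 3.33, by 9.74 (SE 1.29, adjusted p = 1.32e-06 by limma) or 854-fold. The gamma-gliadin probed in the same PCR rose by 8.48 (SE 1.30).

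The omega-gliadin, a sulfur-poor gliadin (Ta.23896.1.S1_at), stood at -8.61, -7.66 and -1.19 at 7 DAA and at 1.32, 1.24 and 1.40 at 14 DAA. Its rise was 7.14 (SE 1.32, adjusted p = 0.000122 by limma), and 9.45 without replicate 3. In a fit of the 6 Sonalika arrays alone the SE was 1.54 (adjusted p = 0.00651 by limma).

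Avenin-like proteins, wheat relatives of the oat prolamins, were split. Of 15 probe sets 11 rose, and 15 did so without replicate 3. An avenin-like protein (Ta.2448.1.S1_at) went from -9.29, -9.29 and -3.34 to 1.40, 1.69 and 1.79, a rise of 8.93 (SE 1.27, adjusted p = 3.75e-06 by limma). The 4 that did not pass share 1 sequence cluster by their identifiers, with differences from 2.05 to 2.96 and adjusted p between 0.0699 and 0.11. Without replicate 3 they gave 3.15 to 4.24.

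Storage globulins, which are stored beside the prolamins, rose at 4 of 4 probe sets, against 12.3% of all, and at 2 after cyclic loess. Triticin (TaAffx.52381.1.S1_at), a legumin-like globulin of the endosperm, rose by 6.73 (SE 1.22, adjusted p = 9.39e-05 by limma) and a 19 kDa globulin (Ta.9402.1.S1_at) by 6.37 (SE 1.06). The Globulin-1 S allele (Ta.154.5.S1_x_at), a vicilin-like protein typical of embryo and aleurone, was at -9.98, -7.03 and -6.31 at 7 DAA and at 0.00, -0.05 and -0.22 at 14 DAA. Its rise of 7.69 (SE 0.91, adjusted p = 2.4e-07) had replicate 3 close to replicate 2. After cyclic loess triticin was at 0.56 (adjusted p = 0.783) and Globulin-1 S at 0.22 (adjusted p = 0.851).

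**Figure D2:**
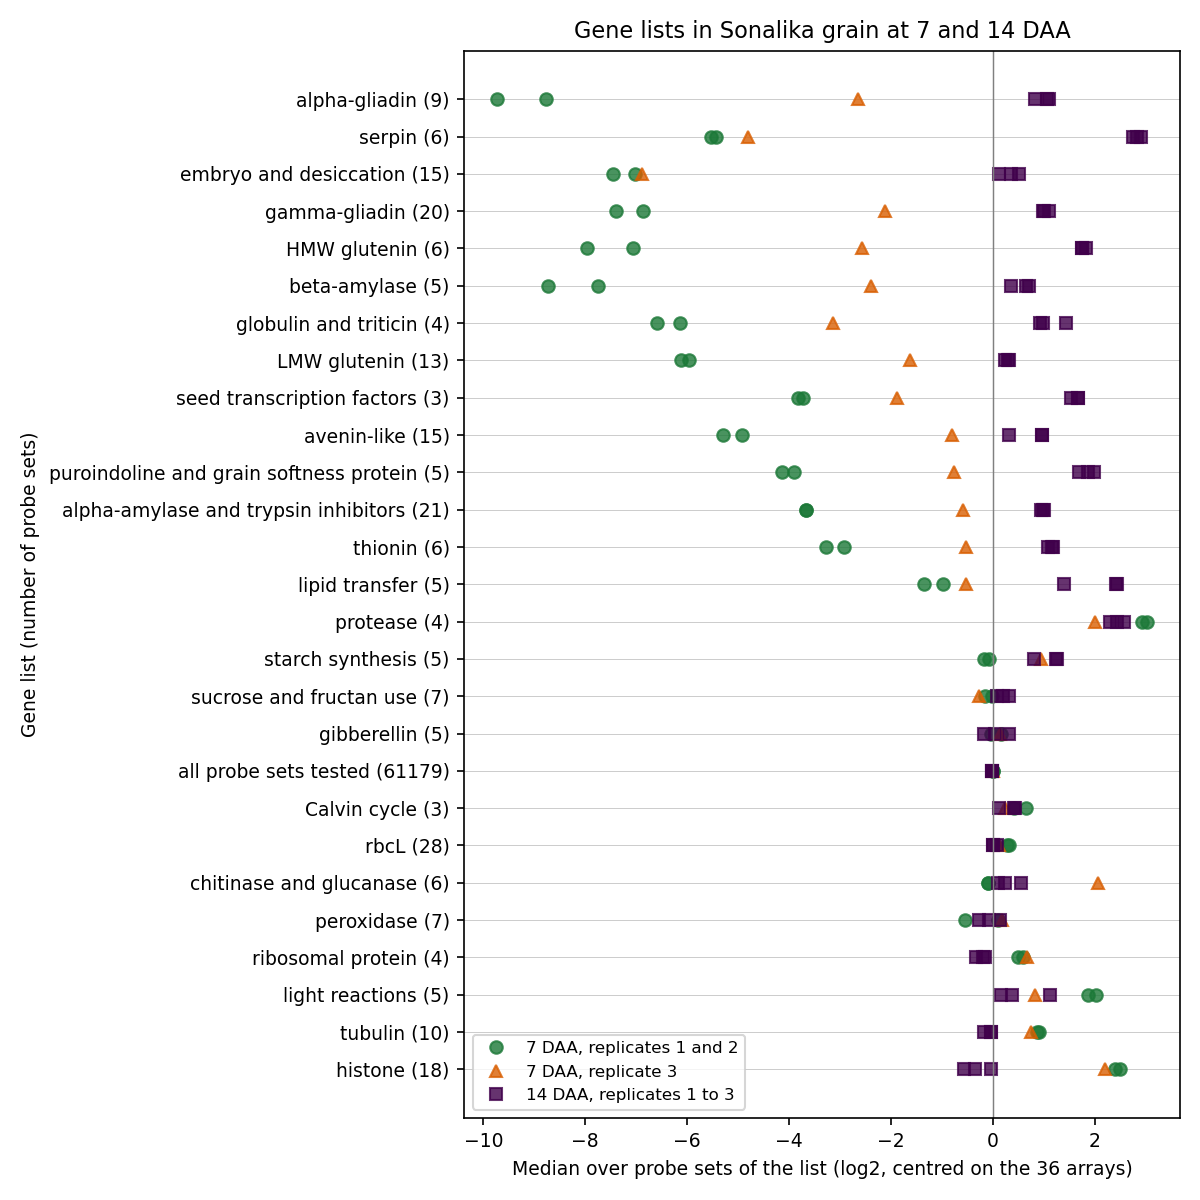
Median log2 value over the probe sets of each gene list (rows, with the number of probe sets) in each array of Sonalika, with circles for 7 DAA replicates 1 and 2, triangles for 7 DAA replicate 3 and squares for 14 DAA. Storage protein lists show the triangle far to the right of the circles, whereas serpins, embryo genes and histones show it near them.

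Puroindolines are small proteins of the starch granule surface that make grain soft. For the grain softness proteins, the paper states that no relationship to grain texture is known. Together they rose at 5 of 5 probe sets, against 12.3% of all, with a median of 4.23, and at 2 after cyclic loess. Puroindoline b (Ta.115.1.S1_at) was at -4.13, -3.92 and -0.999 at 7 DAA and at 0.81, 0.85 and 0.90 at 14 DAA. The arrays did not overlap, and the rise was 3.87 (SE 1.19, adjusted p = 0.0154 by limma), 14.6-fold. The 15 kDa grain softness protein (Ta.840.1.S1_at) rose by 4.72 (SE 1.35, adjusted p = 0.00899). The grain softness protein did not pass without 7 DAA replicate 1 (adjusted p = 0.0655), and puroindoline b passed neither without replicate 1 (0.0799) nor without replicate 2 (0.0723). After cyclic loess they were at 2.52 (adjusted p = 0.0911) and 0.44 (adjusted p = 0.812).

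Inhibitors of alpha-amylase and trypsin act on enzymes of insects and of the grain. They rose at 12 of 21 probe sets, against 12.3% of all, with a median of 3.52. The count was 16 without replicate 3 and 3 after cyclic loess. Differences ran from -0.18 to 8.82. A trypsin inhibitor (Ta.1411.1.S1_s_at) had the largest, from -6.19, -5.92 and -2.41 to 3.64, 4.03 and 4.26, a rise of 8.82 (SE 0.99, adjusted p = 1.01e-07 by limma). The Bowman-Birk trypsin inhibitor (Ta.13439.1.S1_a_at) rose from -6.41, -6.28 and -2.20 to 1.99, 1.19 and 1.65, by 6.57 (SE 0.99), and was at -1.57, -3.78 and -1.87 at 28 DAA. That later fall of -4.01 passed the test (adjusted p = 0.00425), so its peak lay at 14 DAA among the stages measured. A dimeric alpha-amylase inhibitor (Ta.23141.3.S1_x_at) rose by 4.39 (SE 1.17, adjusted p = 0.0053), and was at 0.21 (adjusted p = 0.915) after cyclic loess.

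Serpins are suicide inhibitors of proteases that are abundant in the wheat endosperm. They rose at 6 of 6 probe sets, against 12.3% of all, with a median of 8.28. Serpin-Z2B (Ta.117.1.S1_at) was at -5.76, -5.34 and -5.16 at 7 DAA and at 4.21, 4.42 and 4.83 at 14 DAA, a 959-fold rise of 9.91 (SE 1.19, adjusted p = 3.04e-07 by limma). In contrast to the prolamins, replicate 3 lay beside its group. The list's median was 8.28 with replicate 3 and 8.68 without it, and 6 of 6 also rose after cyclic loess.

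Thionins, small toxic peptides of the endosperm, rose at 4 of 6 probe sets, against 12.3% of all. The count was 5 without replicate 3 and 2 after cyclic loess. A type V thionin (Ta.19.1.S1_at) rose from -8.84, -7.85 and -6.52 to 1.60, 1.65 and 1.81, by 9.42 (SE 0.97, adjusted p = 3.08e-08 by limma). The purothionins changed less, and alpha-1 purothionin (Ta.91.1.S1_at) rose by 2.84 (SE 0.95, adjusted p = 0.0256), a call that was lost on leaving out any 1 of the Sonalika arrays other than 7 DAA replicate 3, and after cyclic loess, at 0.36 (adjusted p = 0.787).

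Beta-amylase, which cereal endosperm stores for the breakdown of starch after germination, showed both directions. Of 5 probe sets 4 rose and 1 fell, against 12.3% and 14.7% of all, and after cyclic loess 0 rose and 1 fell. The probe set Ta.27780.2.A1_x_at went from -9.37, -9.14 and -2.39 to 1.09, 1.22 and 1.18, by 8.13 (SE 1.25, adjusted p = 1.06e-05 by limma), with replicate 3 placed as in the prolamins. The probe set annotated as amy1 and BMY1 (Ta.3.1.S1_at) went from 4.65, 4.50 and 3.08 to -0.10, -0.12 and -0.23, a fall of -4.22 (SE 0.82, adjusted p = 0.00021).

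The xylanase inhibitor XIP-I (Ta.1200.1.S1_x_at), which blocks xylanases of fungi, was among the largest rises of any named gene. It was at -9.62, -9.73 and -9.59 at 7 DAA and at 0.24, 0.23 and 0.14 at 14 DAA. The 6 arrays showed almost no spread within a stage, and the rise of 9.85 (SE 0.98, adjusted p = 1.71e-08 by limma) is 920-fold.

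**Figure D3:**
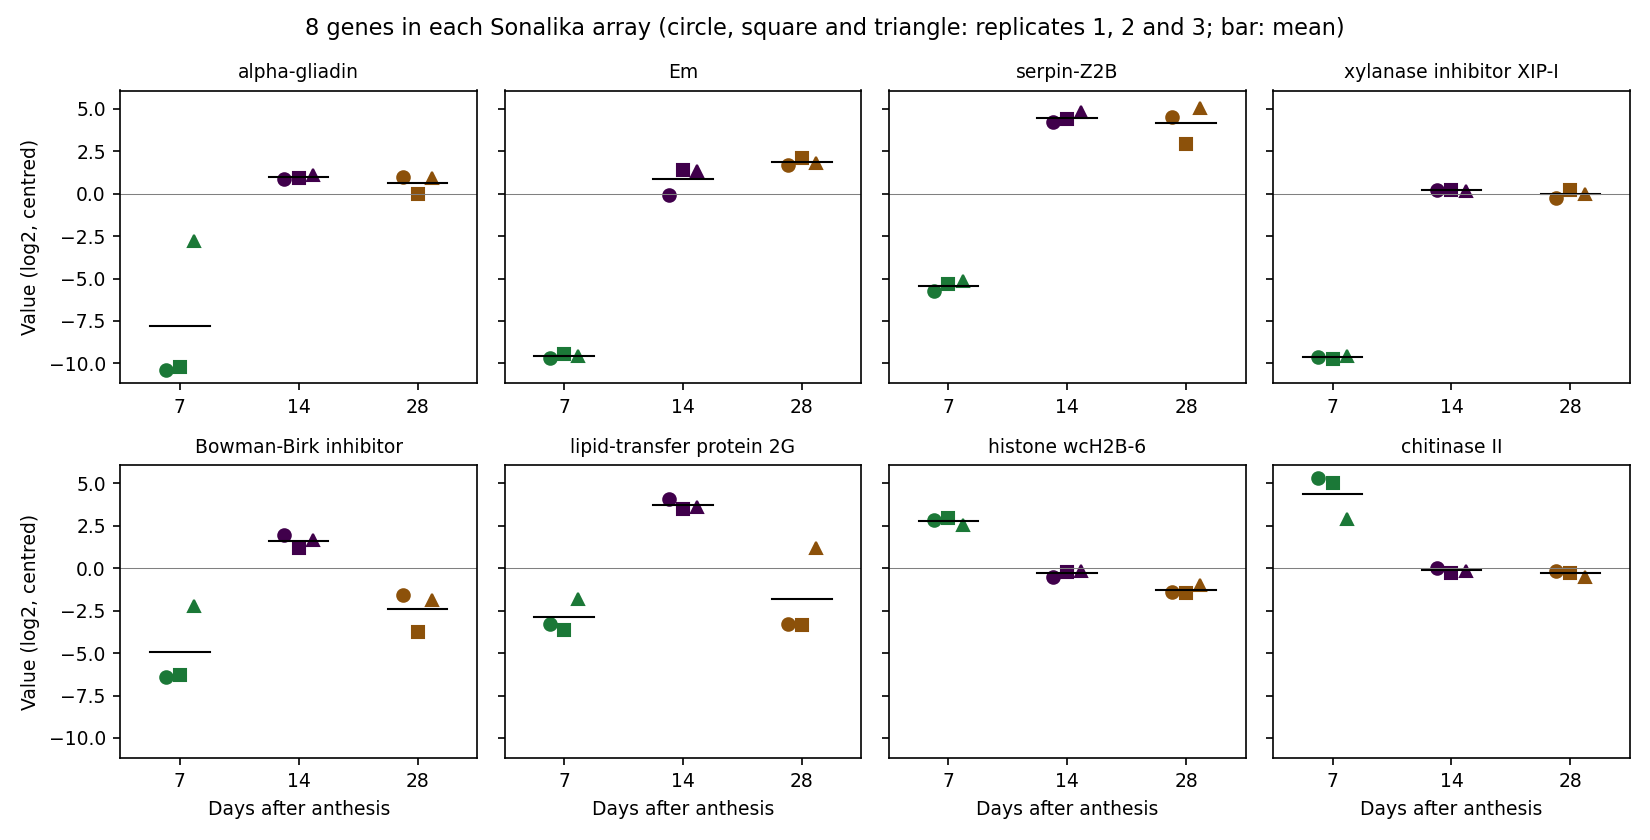
Log2 values of 8 genes in each Sonalika array at 7, 14 and 28 DAA, with circle, square and triangle for replicates 1, 2 and 3 and a bar for the mean. The alpha-gliadin shows 7 DAA replicate 3 at -2.79 above the others, Em, serpin-Z2B and XIP-I show no such gap, and the Bowman-Birk inhibitor and lipid-transfer protein 2G are highest at 14 DAA.

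Of 5 starch synthesis probe sets 0 passed the test in either direction, where 12.3% of all probe sets rose and 14.7% fell. In the fit of the 6 Sonalika arrays alone 2 rose, and after cyclic loess 1. Granule-bound starch synthase, the waxy enzyme that makes amylose (Ta.2795.1.S1_a_at), was at -0.27, -0.17 and 0.76 at 7 DAA and at 1.23, 1.56 and 1.79 at 14 DAA. The arrays did not overlap, yet the difference of 1.42 (SE 0.88, adjusted p = 0.258 by limma) did not pass, and in a fit of the 6 Sonalika arrays alone it did (adjusted p = 0.00305). A second probe set for this enzyme (Ta.24114.7.A1_at) was at 5.65, 5.94 and 6.64 and then at 7.18, 7.12 and 7.19, a difference of 1.09 (adjusted p = 0.262) that passed in the 6-array fit (adjusted p = 0.00541) and, at 3.10, after cyclic loess (adjusted p = 0.0123). The small subunit of ADP-glucose pyrophosphorylase (Ta.242.1.S1_at), the enzyme that makes the sugar donor of starch, was at -0.53, -0.58 and 1.47 and then at 0.80, 1.24 and 1.26, which overlap. A large-subunit probe set (AGA.1, Ta.23665.1.S1_at) differed by 0.17 (adjusted p = 0.817), and fell by 2.61 from 14 to 28 DAA (adjusted p = 5.05e-05).

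Enzymes of fructan and sucrose use gave 2 rises and 1 fall among 7 probe sets, near the shares over all probe sets (12.3% and 14.7%). Fructan 6-exohydrolase (6-FEH, Ta.9641.1.A1_a_at), which trims fructan chains, rose from 0.04, -0.29 and -0.55 to 2.23, 3.18 and 3.49, by 3.23 (SE 0.67, adjusted p = 0.000489 by limma). The cell wall invertase gene beta-fructofuranosidase (Ta.9809.2.S1_at), which splits incoming sucrose, went from 1.89, 2.03 and 4.95 to -0.19, 0.31 and 0.41. This fall of -2.78 (adjusted p = 0.0185) rested on replicate 3, as it was -1.78 (adjusted p = 0.164) without it, and it did not pass without 14 DAA replicate 1 either (adjusted p = 0.0616).

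NAC transcription factors, a plant family of which some members act in seeds, rose at 3 of 3 probe sets, against 12.3% of all. One named after CUP-SHAPED COTYLEDON 2 (Ta.25258.1.S1_at) went from -6.63, -5.99 and -3.67 to 1.53, 1.74 and 1.67, by 7.07 (SE 0.87, adjusted p = 3.85e-07 by limma). A NAM-type factor (Ta.10826.2.A1_x_at) rose by 4.59 (SE 0.91, adjusted p = 0.000295). Replicate 3 was again the highest 7 DAA array in these.

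The heat shock protein gene hsp16.9A (Ta.24332.1.S1_at), a small chaperone, was at 3.61, 3.55 and 3.82 at 7 DAA and at 7.32, 7.25 and 7.06 at 14 DAA. The arrays were far apart, yet the difference of 3.55 (SE 1.52, adjusted p = 0.0868 by limma) did not pass in the fit of all groups. Without 7 DAA replicate 3 it was 3.63 and did not pass either. It did pass in the fit of the 6 Sonalika arrays alone and, at 5.27, after cyclic loess.

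Genes of the embryo and of desiccation tolerance rose at 14 of 15 probe sets, against 12.3% of all, with a median of 7.69. Without replicate 3, 14 also rose, with a median of 7.70. Em (Ta.2798.1.S1_s_at), a late embryogenesis abundant (LEA) protein that holds water in drying seeds, was at -9.67, -9.43 and -9.57 at 7 DAA and at -0.05, 1.41 and 1.32 at 14 DAA. All 7 DAA arrays were far below all 14 DAA arrays, and the rise of 10.45 (SE 1.39, adjusted p = 1.29e-06 by limma) is 1400-fold. After cyclic loess it was -0.73 (adjusted p = 0.727), and 2 of the 15 rose and 2 fell. The embryo list as a whole had medians of -7.45, -7.03 and -6.88 in the 7 DAA replicates, so that replicate 3 lay close to the others here.

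Other members of this list, picked after their values were seen as proteins of other kinds, rose with Em. The dehydrin Rab15 (TaAffx.46097.2.S1_at) rose by 7.23 (adjusted p = 2.13e-08 by limma), LEA1 (Ta.23797.1.S1_x_at) by 6.78 (adjusted p = 3.76e-09) and the 1-Cys peroxiredoxin PER1 (Ta.14503.1.S1_at), an antioxidant of embryo and aleurone, by 8.83 (adjusted p = 2.22e-08). Tonoplast intrinsic protein 3;1 (Ta.13400.2.A1_at), a water channel of seed storage vacuoles, went from -8.67, -7.95 and -8.10 to 0.04, -0.04 and -0.23, by 8.16 (SE 0.83, adjusted p = 2.38e-08), and after cyclic loess the difference was 0.68 (adjusted p = 0.446). The cold-regulated dehydrin COR410 (Ta.16419.1.S1_at) was the member that did not pass, at -0.51 (adjusted p = 0.0667).

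**Figure D4:**
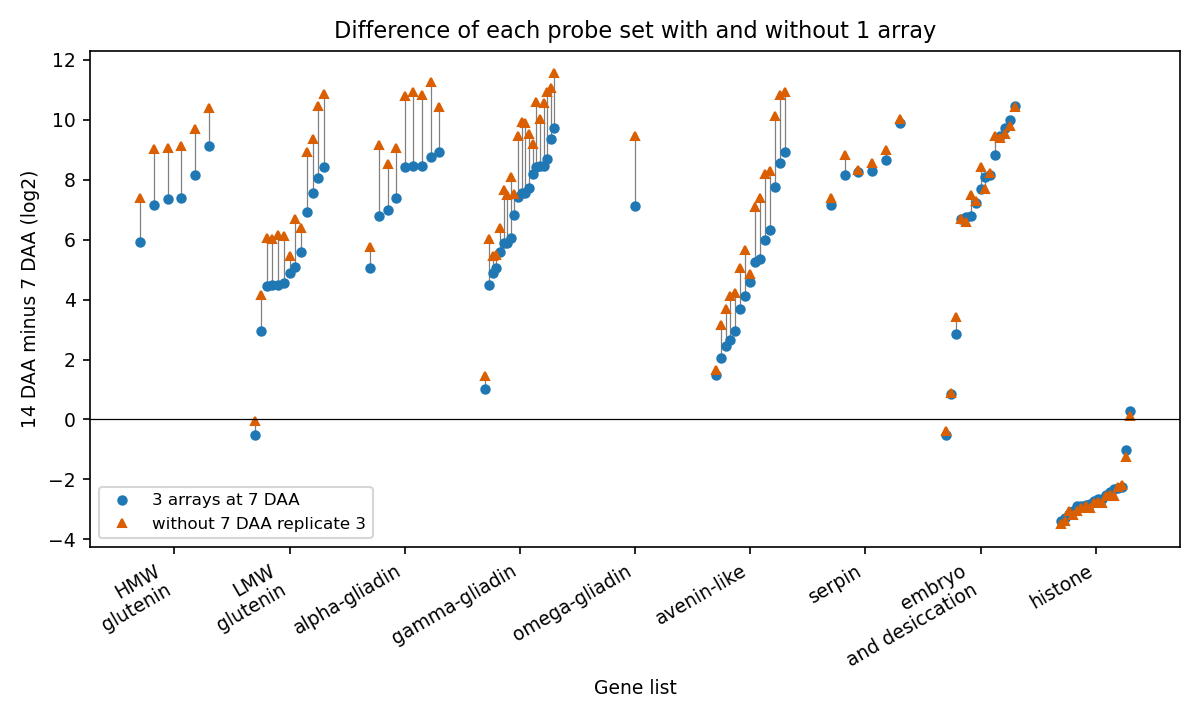
Difference in log2 (14 DAA minus 7 DAA) of each probe set of 9 gene lists in Sonalika, with circles for all 3 arrays at 7 DAA and triangles without 7 DAA replicate 3. The prolamin probe sets move up when the array is left out, from a median of 6.94 to 8.92, whereas the medians of embryo genes and histones are 7.69 and -2.69 with it and 7.70 and -2.79 without it.

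Histone genes fell. Of 18 probe sets for histones H2A and H2B, which package DNA newly made in dividing cells, 17 fell and 0 rose, against 14.7% falling among all probe sets, with a median of -2.69. The same count, 17 of 18, fell after cyclic loess. Many of the 18 read the same gene by their names. Histone wcH2B-6 (Ta.27708.1.S1_x_at) was at 2.87, 2.97 and 2.55 at 7 DAA and at -0.49, -0.21 and -0.14 at 14 DAA, an 8.4-fold fall of -3.07 (SE 0.23, adjusted p = 2.86e-10 by limma). Histone wcH2B-8 (Ta.7378.18.S1_x_at) went from 2.61, 2.62 and 2.34 to -0.07, -0.92 and -1.64, by -3.40 (SE 0.47, adjusted p = 2.23e-06). The 14 DAA arrays lay further apart than the 7 DAA arrays in these genes, with a median SD of 0.398 against 0.187. One probe set for H2A-3 (Ta.27192.1.S1_s_at) gave 0.28 (adjusted p = 0.369), while another for the same gene (Ta.27192.1.S1_at) gave -2.43.

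Tubulins are the subunits of the microtubules that part chromosomes and guide new walls. They fell at 8 of 10 probe sets, against 14.7% of all probe sets, with a median of -1.24. Several of the 10 read the same gene by their names. Alpha-tubulin (TUBA, Ta.723.1.S1_at) fell the most, from 0.66, 0.30 and 0.73 to -2.81, -2.01 and -1.94, by -2.82 (SE 0.33, adjusted p = 2.28e-07 by limma). It was back at 0.47, 0.63 and -0.14 at 28 DAA. The list as a whole went the other way. From 14 to 28 DAA 8 of the 10 probe sets fell and 1 rose, with a median of -1.38, against 8.51% falling and 8.71% rising among all. Beta-tubulin tubb3 (Ta.2837.1.S1_s_at) fell by 1.96 and tubb1 (Ta.212.1.S1_at) by 1.62.

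Genes of the photosynthetic light reactions, which mark the green pericarp, did not pass the test at any of 5 probe sets, with a median of -0.98. PsbP (Ta.85.1.S1_at), a subunit of the oxygen-evolving complex, was at 2.76, 2.61 and 1.56 at 7 DAA and at 0.44, 1.25 and 1.97 at 14 DAA, so that 7 DAA replicate 3 lay within the range of 14 DAA. Its difference was -1.09 (SE 0.78, adjusted p = 0.343 by limma). Of 28 probe sets annotated as rbcL, the plastid gene for the large subunit of Rubisco, 6 fell and 0 rose, with a median of -0.27. Many of these read the same gene, and 14.7% of all probe sets fell. The largest of these falls (TaAffx.128414.1.A1_x_at) was -2.04 (SE 0.53, adjusted p = 0.00417). In the Calvin cycle 0 of 3 probe sets passed, and the phosphoribulokinase gene PRK (Ta.23158.1.S1_at) was at -0.78 (adjusted p = 0.436).

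As for the labelled tissue, storage protein genes of the endosperm and embryo genes were mostly low at 7 DAA and higher at 14 DAA. Markers of dividing cells were mostly the reverse. Each was taken against its own median over the series, so no share of a tissue can be given. Of the starch synthesis genes, which also belong to the endosperm, 0 of 5 probe sets passed the test in either direction. After cyclic loess 24 of the 61 prolamin probe sets rose and 0 fell. Of the 15 embryo probe sets 2 rose and 2 fell, and 17 of the 18 histone probe sets fell. Chlorophyll a/b-binding proteins, the small Rubisco subunit and photosystem I genes, which were planned as further pericarp markers, had no member with a name, as had the planned lists of protein folding, cell cycle and expansin genes.

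Several families held both rising and falling members. Lipid transfer proteins, carriers of wax and defence lipids, gave 3 rises and 1 fall among 5 probe sets, against 12.3% and 14.7% of all. Lipid-transfer protein 2G (Ta.22038.1.S1_at) went from -3.27, -3.61 and -1.80 to 4.06, 3.48 and 3.60, by 6.61 (SE 0.95, adjusted p = 4.21e-06 by limma), and was at -3.26, -3.37 and 1.18 at 28 DAA. A type 1 lipid transfer protein (Ta.28368.2.S1_at) fell by 3.12 (SE 0.72, adjusted p = 0.00136).

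Among chitinases and glucanases, wall-degrading enzymes of defence and growth, 1 of 6 probe sets rose and 2 fell, counts that say nothing of the family beside the 12.3% and 14.7% of all probe sets. Chitinase II (Ta.16059.1.S1_x_at) went from 5.30, 5.03 and 2.89 to 0.04, -0.26 and -0.14, by -4.52 (SE 0.46, adjusted p = 2.37e-08 by limma), a 23-fold fall with replicate 3 the nearest of its group to 14 DAA. Glucan endo-1,3-beta-glucosidase GIV (Ta.27107.1.S1_at) went from -1.85, -2.23 and -0.36 to 3.19, 2.42 and 2.31, by 4.12 (SE 0.75, adjusted p = 9.98e-05), and then fell by 6.10 to 28 DAA (adjusted p = 1.05e-06).

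Peroxidases gave 1 rise and 2 falls among 7 probe sets, counts near the 12.3% and 14.7% of all probe sets. Peroxidase 1 (Ta.10140.1.S1_at) rose by 6.29 (SE 1.05, adjusted p = 3.46e-05 by limma) and the wheat peroxidase Prx1 (Ta.6572.1.S1_at) fell by 2.70 (SE 0.64, adjusted p = 0.00182). Among 4 proteases, the aspartic proteinase nepenthesin-1 (Ta.21787.1.S1_at) fell by 2.89 (SE 0.57, adjusted p = 0.000252). Nepenthesin-2 (Ta.792.1.S1_at) rose by 1.42 (adjusted p = 0.038) although its arrays overlapped, at 2.94, 2.45 and 4.64 against 5.74, 4.19 and 4.34. That call was lost without 7 DAA replicate 1 (1.21, adjusted p = 0.142) or 2 (0.97, adjusted p = 0.235), without 14 DAA replicate 1 (0.92, adjusted p = 0.243) and in the 6-array fit (adjusted p = 0.0888).

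The other large falls among named genes were spread over several functions. The 60S ribosomal protein L4-1 (TaAffx.51309.1.S1_at) went from 6.81, 7.20 and 5.71 to -0.34, -0.40 and -0.38, by -6.95 (SE 0.70, adjusted p = 2.06e-08 by limma), or 124-fold. The other 3 ribosomal protein probe sets changed far less, with RPS29 at 0.69 by one probe set (Ta.24254.3.S1_x_at) and -0.60 by another (Ta.30687.2.S1_x_at), both past the test, and RPL9 (Ta.14183.1.S1_at) at -1.06 (adjusted p = 0.0957). The RPS29 rise did not pass without 7 DAA replicate 3 (adjusted p = 0.0554) or without 14 DAA replicate 2 (adjusted p = 0.0626). The proline-rich protein DC2.15 (Ta.1345.1.S1_x_at) fell by 5.93 (SE 0.64), and a putative lipoxygenase 3 (Ta.22828.2.S1_at), an oxidase of fatty acids, fell by 5.12 (SE 0.59).

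The largest changes of all belonged to probe sets without a name. Ta.1304.1.S1_at went from -6.82, -6.92 and -6.61 to 3.97, 3.83 and 4.13, by 10.76 (SE 1.01, adjusted p = 7.71e-09 by limma). TaAffx.48201.1.S1_s_at went from 9.82, 9.70 and 9.81 to -0.25, -0.35 and -0.68, by -10.21 (SE 1.40, adjusted p = 2.18e-06). Neither had a replicate that stood apart.

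From 14 to 28 DAA the same lists gave other values, in a contrast that shares the 14 DAA arrays. Of the 61 prolamin probe sets 0 rose and 0 fell by limma, against 8.71% rising and 8.51% falling among all, and their median was -0.36. Embryo genes held a median of 0.56, with 0 rises and 1 fall. Histones fell again, at 13 of 18 with 1 rise and a median of -2.87. Their medians went from -0.03, -0.35 and -0.57 at 14 DAA to -3.42, -3.33 and -3.22 at 28 DAA.

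C306 gave the same comparison in a variety of good quality, with 4180 rises (6.83%) and 6276 falls (10.3%). Sonalika and C306 shared 2852 rises, 37.9% of those of Sonalika and 68.2% of those of C306, and 4436 falls, 49.4% and 70.7%. Opposite calls were made at 12 and 52 probe sets. The change itself differed between the varieties at 818 probe sets (1.34%), of which 461 were higher (0.754%) and 357 lower (0.584%) in Sonalika. This count rested on single arrays. Without 7 DAA replicate 1, 2 or 3 of Sonalika it was 401, 304 or 1112, without Sonalika 14 DAA replicate 2 or 3 it was 417 or 350, and without C306 7 DAA replicate 1 or 2 it was 341 or 439.

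In the prolamins the change was larger in Sonalika in its median, 6.94 against 2.13 in C306, where 14 of the 61 rose. None of the 61 passed the test of the difference by limma, with all 3 arrays at 7 DAA. The C306 medians at 7 DAA were -0.58, -0.40 and -2.45, so that replicate 3 was the lowest there, as it was the highest in Sonalika, and the replicate 3 medians of both varieties, -1.98 and -2.45, were close. At 14 DAA the C306 medians were 1.01, 1.03 and 0.14, in the range of Sonalika or slightly below.

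The medians of serpins, histones and embryo genes were less far apart than those of the prolamins, and only those of histones were close. Serpins rose at 6 of 6 probe sets in C306, with a median of 5.45 against 8.28 in Sonalika. Histones fell at 16 of 18, with a median of -2.49 against -2.69 in Sonalika. Embryo genes rose at 12 of 15 in C306, with a median of 4.31 against 7.69 in Sonalika. The C306 arrays at 14 DAA were uneven in the embryo genes, with list medians of -4.91, -1.93 and 0.05.

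**Figure D5:**
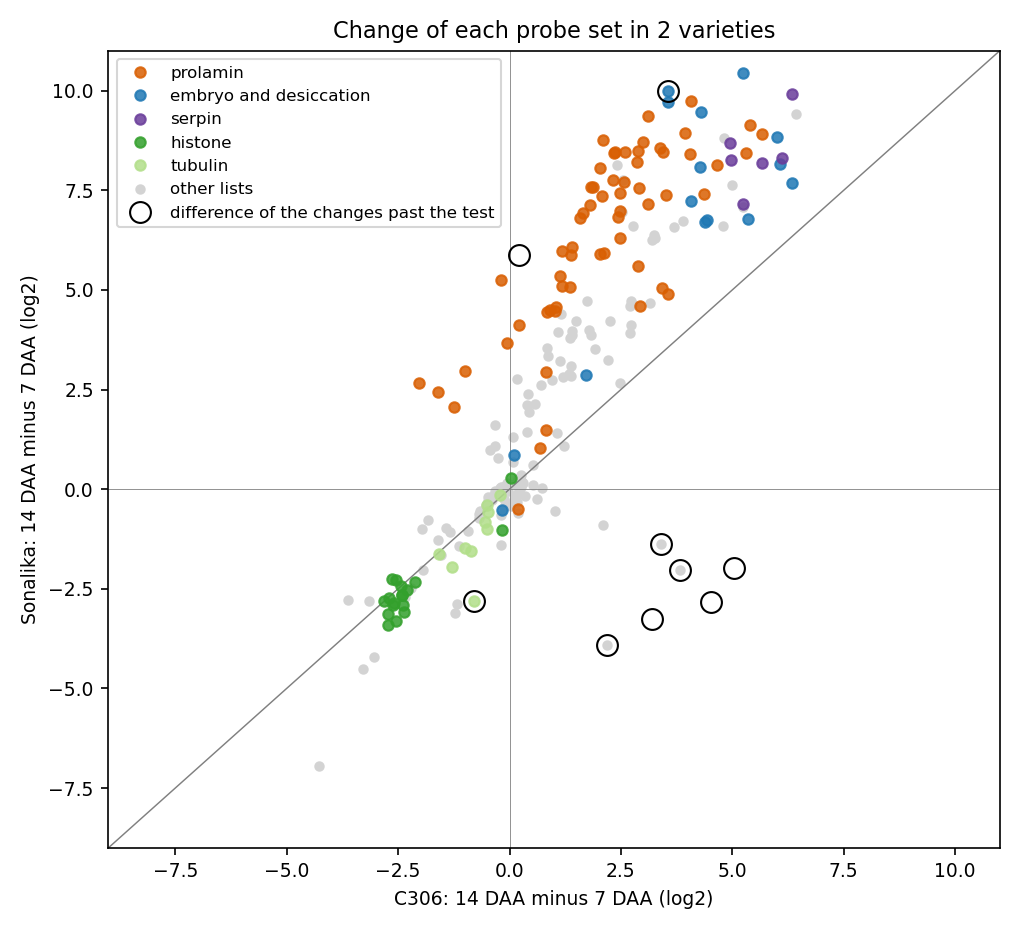
Difference in log2 (14 DAA minus 7 DAA) of each probe set of the gene lists in C306 (horizontal axis) and Sonalika (vertical axis), coloured by list, with rings around probe sets whose difference between the changes passed limma's test, empty where the gene is named but in no list. Of the 61 prolamins 60 lie above the diagonal, with medians of 2.13 in C306 and 6.94 in Sonalika, and histones lie near it.

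Single genes whose change differed included the gibberellin enzyme ent-copalyl diphosphate synthase (TaAffx.132743.10.S1_at), which makes the first dedicated precursor of the hormone. In Sonalika it went from 2.67, 2.55 and 2.26 to -0.25, -1.54 and -2.48, a fall of -3.92 (SE 0.64, adjusted p = 2.43e-05 by limma). In C306 it went from -2.02, -1.68 and -1.45 to -0.25, 0.31 and 1.35, a rise of 2.18. The difference of the changes was -6.10 (SE 0.90, adjusted p = 0.000493). The other 4 gibberellin probe sets, for GA 20-oxidases, changed by between -0.01 and 0.10 in Sonalika. Of the 5 gibberellin probe sets 2 rose in C306, against 6.83% of all, and 1 passed the test of the difference.

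The gene annotated as pTACR7 (Ta.14489.1.S1_at) rose in Sonalika from -0.65, -0.49 and -0.93 to 4.52, 5.62 and 5.43, by 5.88 (SE 0.42, adjusted p = 1.28e-10 by limma). In C306 the same gene gave 0.21 (adjusted p = 0.813), and the changes differed by 5.67 (SE 0.60, adjusted p = 2.92e-06). A universal stress protein A-like gene (Ta.5847.1.S1_at) fell from -0.10, -0.08 and 0.08 to -3.19, -3.06 and -3.62 in Sonalika and was at -2.82, 2.64 and 4.05 in C306 at 14 DAA. The changes differed by -6.46 (adjusted p = 0.0107), with C306 14 DAA replicate 1 far from its replicates.

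The Em gene annotated as EMH2 (Ta.25025.1.S1_at) went from -8.90, -7.57 and -8.83 to 0.80, 1.98 and 1.87 in Sonalika, a rise of 9.98 (SE 1.18, adjusted p = 2.13e-07 by limma). In C306 it was at -7.70, -8.36 and -8.44 and then at -8.88, -4.16 and -0.80, so that one 14 DAA array had not left the range of 7 DAA. The changes differed by 6.43 (SE 1.66, adjusted p = 0.0474), a call lost in 11 of the 12 fits that leave out 1 array of either variety. Alpha-tubulin (Ta.723.1.S1_at) was at 0.51, 0.41 and 0.66 and then at -0.46, -0.22 and -0.14 in C306, and the changes differed by -2.01 (SE 0.47, adjusted p = 0.028). This call was lost in 5 of the same 12 fits, without 7 DAA replicate 1 or 14 DAA replicate 1 of Sonalika and without 7 DAA replicate 1 or 2 or 14 DAA replicate 2 of C306, at adjusted p from 0.0514 to 0.0723.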

How the data were processed

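The values are those the authors deposited for 36 Affymetrix Wheat Genome Arrays (3′ labelled RNA of developing caryopses): log2 signals that the authors normalized by RMA over all arrays in GeneSpring. The deposited values were found to be centred, each probe set having a median of 0. Groups and replicate numbers came from the sample titles, with 3 arrays per variety and stage, called biological replicates there, and the number of arrays limits the precision.

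Control probe sets were left out of the tests. A model with 12 means of variety and stage was fitted to the 36 arrays in limma 3.58.1 (R 4.3.3), with moderated variances and Benjamini-Hochberg adjustment over 61179 probe sets. The change in Sonalika was the 14 DAA mean minus the 7 DAA mean, and its difference from the change in C306 was a contrast of the same fit. The arrays labelled Lok1 7 DAA and WH291 14 DAA may not match their labels, which was not tested here, and entered only the estimate of the spread. Tables and plots used pandas 2.3.3 and matplotlib 3.10.9, and the fit was tested on simulated data. Genes were named from the annotation of the array and the study's own gene list. Named by rule were the 4 largest differences past the test in a list (or, where fewer passed, those that did not), the 5 largest rises and 5 largest falls with a name and no overlap of arrays, the 2 largest of each sign without a name, the 3 probe sets of the study's PCR and the 3 largest of each sign against C306. The Glu-D3, H2A-3 and COR410 exceptions, Rab15, LEA1 and PER1 were named after their values were seen. The members and lists were chosen with earlier results of these data known. Alternatives were other normalizations, filters, array weights, fits of fewer arrays and a replicate block, and the fit of 6 arrays without 7 DAA replicate 3 was added after seeing the data.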

Additional observations from a re-analysis of the deposited data

Results flagged for a closer look

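The change from 7 to 14 DAA differed between Sonalika and C306, by the limma test of the difference itself, at 9 of the named probe sets. The alpha-tubulin TUBA fell more in Sonalika, by a difference of -2.01. The ent-copalyl diphosphate synthase gene fell in Sonalika and rose in C306, a difference of -6.10, and Em (EMH2) rose more in Sonalika, by 6.43. The gene pTACR7 rose in Sonalika and did not pass in C306, a difference of 5.67. The receptor kinase FLS2-like gene (-7.34), the protein phosphatase 2C 64 gene (-7.01) and the universal stress protein A-like gene (-6.46) were lower in the change of Sonalika, as were 2 probe sets for a transposon TNT polyprotein (-5.86 and -4.78), which share a target. Of these 9 calls, 6 held under every alternative run. On leaving out 1 of the 12 arrays of both varieties, Em lost its call in 11 fits and TUBA in 5, and the second transposon probe set lost its call without Sonalika 7 DAA replicate 2 (-4.24, adjusted p = 0.0689). Em was also lost after cyclic loess (4.59), with the replicate block and without moderation of the variance, and TUBA without moderation. At FLS2, protein phosphatase 2C 64, the stress protein, the transposon and Em, C306 14 DAA replicate 1 lay below the other 2 arrays of its group.

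Outside the measured genes, the poly-A control probe sets were higher at 14 than at 7 DAA in Sonalika by a median of 5.79, with no overlap of the arrays.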

How the results depend on the processing

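The counts of rises and falls, with and without a 2-fold minimum, stayed within 1.5 times their values under every alternative run. The storage list, with 51 rises, gave 22 after cyclic loess and 46 to 56 on leaving out single arrays. Cyclic loess acted here on values centred per probe set and not along signal level, so it cannot decide whether these results depend on the normalization. The 818 differences between the changes of Sonalika and C306 became 8874 with array weights, 541 without moderation of the variance, 1487 without the arrays labelled Lok1 7 DAA and WH291 14 DAA, and 304 to 1112 on leaving out single arrays. The causes were not tested.

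Deviations from the stage means correlated at 0.081, -0.003 and 0.054 between same-numbered replicates. Between differently numbered ones the correlations ran from -0.065 to 0.028. With 3 arrays per stage, such values cannot tell whether the numbers pair the arrays. With the replicate block 7454 rises and 8789 falls were called, 54 of the storage list rose and 646 differences between the varieties passed.

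Of the 131 differences of named probe sets, 68 kept both sign and call under every alternative run. After cyclic loess 29 lost their call, 5 changed sign and 2 gained a call. Reversed signs concerned mostly differences near 0. Cyclic loess turned a beta-amylase (Ta.27780.3.S1_x_at) to -0.22, FBP (Ta.439.1.S1_at) to 0.16, GA20OX1-A to 0.0918, Em (Ta.2798.1.S1_s_at) to -0.73 and ADP-ribosylation factor to 0.0314. Centring the arrays gave 0.006 for GA20OX1-A and 0.0099 for ADP-ribosylation factor, and array weights gave -0.0023 for GA20ox1d (Ta.141.1.S1_x_at) and 0.0693 for ADP-ribosylation factor. The fit of 6 arrays without 7 DAA replicate 3, chosen after seeing the data, gave 0.5552 and 0.601 for the 2 Endoglucanase 11 probe sets, 0.0133 for GA20OX1-A and 0.1337 for ADP-ribosylation factor. Leaving out single arrays gave ranges of -0.0383 to 0.5308 and -0.0149 to 0.1183 for the AGA.1 probe sets, -0.0028 to 0.1524 for IVR1, -0.0014 to 0.2496 for PsbP (TaAffx.120874.1.S1_x_at), -0.209 to 0.1024 for FBP, -0.9406 to 0.5552 and -0.9361 to 0.601 for Endoglucanase 11, -0.0128 to 0.1372 and -0.1052 to 0.1507 for GA20ox1d, -0.2093 to 0.1724 for GA20OX1-A and -0.0841 to 0.1337 for ADP-ribosylation factor.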
